A study of Arabidopsis thaliana with 11 samples.

Results

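Abscisic acid (ABA) is the plant hormone that promotes seed maturation and dormancy. The 8 genes described here set its level: NCED5 (AT1G30100), NCED6 (AT3G24220), NCED9 (AT1G78390), ABA2 (AT1G52340) and AAO3 (AT2G27150) act in its synthesis, and CYP707A1 (AT4G19230), CYP707A2 (AT2G29090) and CYP707A3 (AT5G45340) in its breakdown. They were chosen by locus, and all 8 were found in the deposited count tables, which list 63867 features in experiment 1 and 37336 in experiment 2. The study measured messenger RNA in hand-dissected Arabidopsis thaliana endosperm, the nutritive tissue around the embryo, in 11 libraries. Every cross had a mother of the Ler strain and a father of the Col strain. In experiment 1, taken 6 days after pollination, homozygous nrpd1 endosperm (3 libraries) came from a mother and a father that both carried nrpd1a-4, and wild-type endosperm (2 libraries) from parents without it. In experiment 2, taken 6 to 7 days after pollination, paternal nrpd1 endosperm (3 libraries) came from a wild-type mother and an nrpd1a-4 father, and wild-type endosperm (3 libraries) from parents without it. NRPD1 is the gene of the largest RNA polymerase IV subunit, and this polymerase starts the pathway in which small RNAs guide DNA methylation. Each library pooled seeds of crosses between several plants, and the labels name 1 mutant allele.

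The NCED enzymes cleave 9-cis-epoxycarotenoids in the plastid, the step usually regarded as rate-limiting, to give xanthoxin. In the cytosol ABA2 oxidises xanthoxin to abscisic aldehyde and AAO3 oxidises the aldehyde to ABA. The CYP707A cytochrome P450 enzymes inactivate ABA by hydroxylation at the 8' position. In Arabidopsis seeds NCED6 and NCED9 are known as the main NCED genes, with NCED6 in the endosperm, while CYP707A1 and CYP707A2 are known to lower ABA during seed development and imbibition.

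The promoters of NCED6, NCED9, CYP707A1 and CYP707A3 are shown because the differences in paternal nrpd1 and the most alike patterns across libraries involve these genes. Each is the 250 bases before the annotated start, from the RefSeq TAIR10.1 genome, printed 5′ to 3′ on the strand of the gene. NCED6 lies on the plus strand (chr3:8761169-8761418), NCED9 on the minus strand (chr1:29492876-29493125), CYP707A1 on the plus strand (chr4:10521009-10521258) and CYP707A3 on the minus strand (chr5:18371022-18371271). Capitals mark ACGTG, the core of the ABA-responsive element, and CATGCA, the core of the RY element of seed promoters, on either strand. The palindrome CACGTG holds ACGTG on both strands and counts as 2 overlapping matches, and TGCATG is CATGCA on the other strand.
NCED6: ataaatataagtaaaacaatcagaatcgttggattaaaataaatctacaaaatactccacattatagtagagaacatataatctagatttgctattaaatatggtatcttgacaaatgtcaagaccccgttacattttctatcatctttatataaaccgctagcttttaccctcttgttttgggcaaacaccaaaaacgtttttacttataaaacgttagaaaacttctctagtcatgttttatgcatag
NCED9: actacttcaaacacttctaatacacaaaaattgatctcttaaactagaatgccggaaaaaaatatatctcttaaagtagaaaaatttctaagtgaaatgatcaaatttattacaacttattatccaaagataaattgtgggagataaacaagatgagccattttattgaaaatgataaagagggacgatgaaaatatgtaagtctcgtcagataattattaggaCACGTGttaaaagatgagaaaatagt
CYP707A1: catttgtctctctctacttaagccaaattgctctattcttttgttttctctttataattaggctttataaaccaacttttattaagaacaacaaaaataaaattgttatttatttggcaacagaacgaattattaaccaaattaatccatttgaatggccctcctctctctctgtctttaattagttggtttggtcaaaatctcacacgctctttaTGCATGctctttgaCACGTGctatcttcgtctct
CYP707A3: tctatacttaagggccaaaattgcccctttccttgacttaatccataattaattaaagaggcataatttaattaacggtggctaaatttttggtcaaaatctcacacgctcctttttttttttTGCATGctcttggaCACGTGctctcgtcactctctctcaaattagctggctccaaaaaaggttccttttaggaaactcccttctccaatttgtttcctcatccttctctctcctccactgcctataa
Of 27443 promoters of this length, 22.9% held ACGTG and 8.43% held CATGCA. Both letter groups stood in the CYP707A1 and CYP707A3 promoters, with CACGTG from 20 to 15 bases before the start of CYP707A1 and from 113 to 108 bases before that of CYP707A3. TGCATG stood from 34 to 29 bases before CYP707A1 and from 127 to 122 bases before CYP707A3. The same 2 promoters shared a run of 23 identical bases, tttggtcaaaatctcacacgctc, which began 61 bases before CYP707A1 and 162 bases before CYP707A3. The longest run shared by any other pair among the 8 promoters was 11 bases, between AAO3 and NCED5. NCED9 held CACGTG from 26 to 21 bases before its start and no CATGCA. The windows of NCED6, NCED5, ABA2, AAO3 and CYP707A2 held neither. On the RefSeq TAIR10.1 assembly NCED5 lies at chr1:10571310-10573365, NCED6 at chr3:8761419-8763303, NCED9 at chr1:29490705-29492875, ABA2 at chr1:19489794-19491650. AAO3 lies at chr2:11601727-11608450, CYP707A1 at chr4:10521259-10523961, CYP707A2 at chr2:12494826-12499723, CYP707A3 at chr5:18368532-18371021. The NCED genes are annotated with 1 exon each.

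Libraries of experiment 1 held 15926510 to 20817788 total counts and those of experiment 2 held 24845721 to 35629462. Levels are given as CPM, the count of a gene scaled to a library of 1000000 counts. NRPD1 itself differed by a log2 change of -0.72 ± 0.16 (SE) in homozygous nrpd1 and -1.30 ± 0.46 in paternal nrpd1, with edgeR adjusted p-values of 0.238 and 0.616. Its allele-assigned counts in homozygous nrpd1 were 0 Ler and 191, 136 and 268 Col counts, with both parents mutant, against Ler shares of 32.2% and 36.0% in wild type. In experiment 2 its pooled Ler share was 59.6% of 52 counts in paternal nrpd1 and 53.4% of 131 in wild type. Of the endosperm markers, ALE1 and ZOU were detected in every library, while MINI3 and IKU2 were at or near 0. Homozygous nrpd1 replicate 2 stood apart, with Spearman correlations of 0.952 to 0.974 with the other libraries of its experiment. In experiment 2, paternal nrpd1 replicate 2 and wild-type replicate 1 were most alike across the genotypes, with a correlation of 0.965. Their TMM factors, which scale library sizes, were 0.750 and 0.789, against 0.992 to 1.27 in the other 4 libraries. Wild-type replicate 2 of experiment 1 had a low Ler share in the segment of chromosome 1 around NCED9. In bulk tissue, fewer cells of a type and less RNA per cell cannot be told apart.

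Levels of different genes were compared per kilobase of exon. NCED6 was the highest of the 8 genes in experiment 1, with a mean of 60.9 ± 2.29 CPM per kilobase in homozygous nrpd1 and 49.1 ± 10.7 in wild type (SD, n = 3 and 2). ABA2 followed at 39.2 ± 2.64 in homozygous nrpd1 and 37.4 ± 0.472 in wild type, then CYP707A1 at 28.8 ± 8.58 and 27.9 ± 0.668, and NCED9 at 20.4 ± 4.58 and 15.9 ± 4.91. The rest of the order was the same in both groups. CYP707A3 had 9.56 ± 4.66 CPM per kilobase in homozygous nrpd1 and 7.76 ± 0.246 in wild type, and AAO3 had 3.55 ± 0.292 and 5.12 ± 0.544. CYP707A2 had 2.55 ± 2.89 CPM per kilobase in homozygous nrpd1 and 0.633 ± 0.00852 in wild type, and NCED5 was lowest at 0.496 ± 0.103 and 0.514 ± 0.0975. No neighbours in this order overlapped between the 2 wild-type libraries, while in homozygous nrpd1 the libraries of ABA2 and CYP707A1, of CYP707A1 and NCED9, and of AAO3 and CYP707A2 overlapped.

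In experiment 2 the order was led by ABA2 in paternal nrpd1, at 19.7 ± 2.99 CPM per kilobase, and by CYP707A1 in wild type, at 25.6 ± 14.6 (SD, n = 3 each). CYP707A1 had 11.1 ± 4.96 in paternal nrpd1 and ABA2 had 18.6 ± 4.45 in wild type. NCED6 followed in both, at 8.01 ± 3.84 in paternal nrpd1 and 12.99 ± 4.59 in wild type. NCED9, the fourth in wild type at 2.71 ± 2.48, had 0.185 ± 0.219 in paternal nrpd1. CYP707A3 had 0.605 ± 0.212 in paternal nrpd1 and 2.31 ± 1.44 in wild type. AAO3, CYP707A2 and NCED5 lay under 1 CPM per kilobase in every library of experiment 2. In wild type the libraries of CYP707A1, ABA2 and NCED6 overlapped, as did those of NCED9 and CYP707A3. In paternal nrpd1 ABA2 stood above CYP707A1 without overlap, while CYP707A1 and NCED6 overlapped, as did CYP707A3 and NCED9. Between the experiments the kit, read length and read pairing differed, so their levels were not compared.

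NCED6 supplied most of the NCED messenger RNA. Its share of the summed level of NCED5, NCED6 and NCED9 per kilobase was 71.7%, 73.6% and 78.5% in homozygous nrpd1, against 76.3% and 74.0% in wild type. In experiment 2 that share was 97.0%, 98.9% and 94.7% in paternal nrpd1, against 90.2%, 76.0% and 88.2% in wild type. This restates the lower NCED9 level in paternal nrpd1, since the mean level of NCED6 itself was also lower there. CYP707A1 made up 65.7% to 72.8% of the summed CYP707A level in homozygous nrpd1 and 76.8% to 77.0% in wild type of experiment 1. In experiment 2 it made up 90.1% to 95.5% in paternal nrpd1 and 89.4% to 92.6% in wild type. The ratio of the NCED sum to the CYP707A sum was 2.36, 2.57 and 1.41 in homozygous nrpd1, against 1.47 and 2.15 in wild type. In experiment 2 it was 0.768, 0.572 and 0.697 in paternal nrpd1, against 0.855, 0.546 and 0.476 in wild type. These ratios overlapped between mutant and wild type in both experiments.

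**Figure D1:**
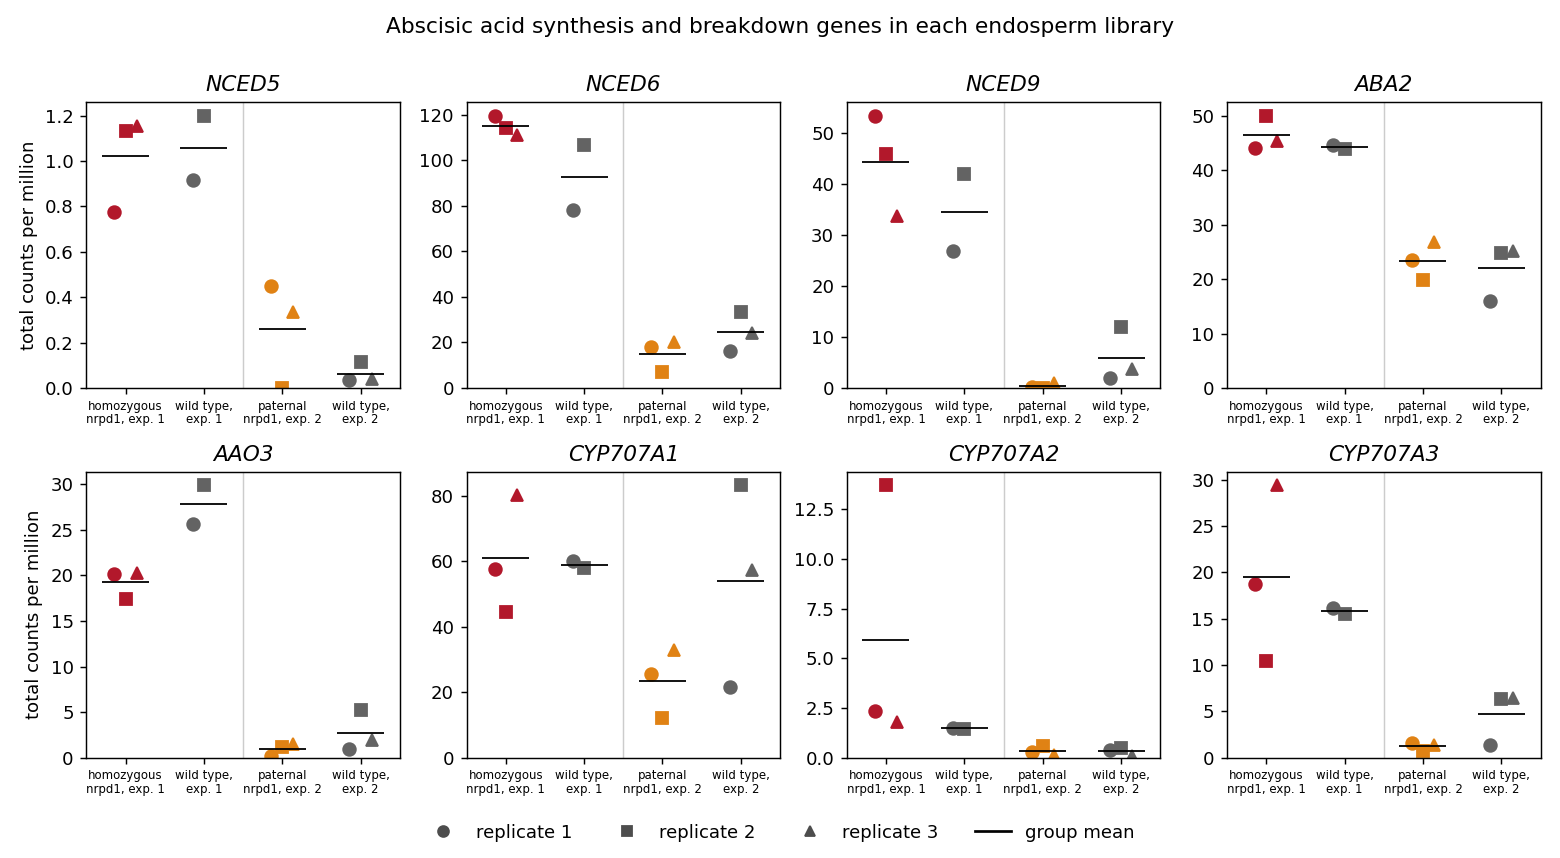
CPM of total counts (vertical axes, linear from 0) of the 8 genes in each library, with mutant groups left of the wild type of their experiment, symbols for replicates and a bar for the group mean. AAO3 lies lower in all 3 homozygous nrpd1 libraries than in both wild-type libraries, and NCED9 lies lower in all 3 paternal nrpd1 libraries than in the 3 wild-type libraries.

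Loss of NRPD1 in both parents left the ABA genes without a called difference: 0 of the 8 passed the edgeR test at an adjusted p under 0.05, where 0.334% of the 18570 features tested passed. The median log2 change of the 8 was 0.22, beside 0.00 for all features, with 6 above 0 and 2 below. In NCED6 and CYP707A2 every homozygous nrpd1 library lay above both wild-type libraries, as in 13.2% of features, and in AAO3 every one lay below, as in 19.7%. The other 5 genes overlapped.

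NCED6, the endosperm NCED gene, had 120, 114 and 111 CPM in homozygous nrpd1, against 78.2 and 107 CPM in wild type. All 3 mutant libraries were higher, the lowest of them by little over wild-type replicate 2. The log2 change was 0.35 ± 0.15 (SE; edgeR adjusted p = 0.447), and it was 0.12 without wild-type replicate 1 and 0.61 without wild-type replicate 2. NCED9 had 53.5, 46.0 and 33.8 CPM in homozygous nrpd1, against 27.0 and 42.0 CPM in wild type. The groups overlapped, and the log2 change was 0.40 ± 0.27 (adjusted p = 0.578). It was 0.0992 without wild-type replicate 1 (adjusted p = 0.970) and 0.78 without wild-type replicate 2 (adjusted p = 0.852). NCED5 was barely detected, with 13, 18 and 24 total counts in homozygous nrpd1 and 16 and 23 in wild type, and its log2 change was -0.01 ± 0.36 (adjusted p = 0.991).

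ABA2, the xanthoxin dehydrogenase, had close levels in all 5 libraries. It had 44.1, 49.98 and 45.2 CPM in homozygous nrpd1, against 44.6 and 43.8 CPM in wild type, a log2 change of 0.11 ± 0.11 (edgeR adjusted p = 0.706). AAO3, the aldehyde oxidase of the last step, had 20.2, 17.5 and 20.2 CPM in homozygous nrpd1, against 25.7 and 29.9 CPM in wild type. Its groups were separate, with a log2 change of -0.49 ± 0.11, an unadjusted p of 0.00491 and an adjusted p of 0.234. DESeq2 gave AAO3 an adjusted p of 0.0761, and called none of the 8 genes, beside 2.78% of features. Both genes overlap annotated genes on the other strand, ABA2 with AT1G52330 and AT1G07803 and AAO3 with AT2G27160, and since the counting is not stated to use strand, reads of the partners cannot be told apart.

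Of the breakdown genes, CYP707A1 had 57.8, 44.5 and 80.4 CPM in homozygous nrpd1, against 59.98 and 58.0 CPM in wild type. The mutant libraries lay on both sides of wild type, and the log2 change was 0.08 ± 0.22 (edgeR adjusted p = 0.902). CYP707A3 had 18.8, 10.4 and 29.4 CPM in homozygous nrpd1, against 16.2 and 15.5 CPM in wild type, a log2 change of 0.33 ± 0.38 (adjusted p = 0.740). In both genes replicate 3 was the highest mutant library and replicate 2 the lowest. CYP707A2 had 2.33, 13.7 and 1.78 CPM in homozygous nrpd1, against 1.49 and 1.46 CPM in wild type. Its high value came from replicate 2 alone. The log2 change was 2.08 ± 1.05 with that library (adjusted p = 0.485) and 0.47 ± 0.30 without it (adjusted p = 0.638). The log2 change of CYP707A3 without that library was 0.61 ± 0.23 (adjusted p = 0.446).

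The same library, homozygous nrpd1 replicate 2, differed in messenger RNAs that ABA is known to induce. The summed level of RAB18, RD29A, RD29B, EM1 and EM6 was 40.3, 2512.6 and 79.6 CPM in homozygous nrpd1, against 20.8 and 67.6 CPM in wild type. Only replicate 2 had counts for all 5 of these genes. Its endosperm markers summed to 194 CPM, against 321 and 308 CPM in the other homozygous nrpd1 libraries and 312 and 286 CPM in wild type. Of the 5 endosperm markers tested, 2 had a log2 change above 0 and 3 below. ZOU had 0.28 ± 0.13 and AGL62 0.63 ± 0.43 (SE; edgeR adjusted p = 0.461 and 0.576). Seed coat markers summed to 1194, 905 and 837 CPM in homozygous nrpd1 and to 849 and 872 CPM in wild type, and of the 8 tested 5 had a log2 change above 0 and 3 below. The 2 with the smallest unadjusted p were BAN and TT10. BAN, a proanthocyanidin gene, averaged 155 ± 64.6 CPM in homozygous nrpd1 and 17.7 ± 6.41 CPM in wild type (SD, n = 3 and 2). The log2 change of BAN was 3.17 ± 0.46 (SE; edgeR adjusted p = 0.101; DESeq2 adjusted p = 1.4e-14). Its counts in homozygous nrpd1 were nearly all Col, with 3 Ler counts of 7099, against 484 of 494 in wild type, and BAN is among the listed genes described with the maternal shares. TT10, a laccase gene, had 0.36 ± 0.14 (edgeR adjusted p = 0.408), and MUM4, chosen after its values were seen as a gene below 0, had -0.32 ± 0.15 (edgeR adjusted p = 0.471). Embryo markers summed to 7.65, 9.48 and 17.3 CPM in homozygous nrpd1 and to 13.2 and 16.3 CPM in wild type, with CUC2 at 0 in every library. The 2 tested were CUC1 at -0.30 ± 0.40 and STM at -0.49 ± 0.65 (edgeR adjusted p = 0.773 and 0.777). The part of seed coat, embryo or endosperm content in the values of the ABA genes was not tested.

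Loss of NRPD1 in the father alone was compared in experiment 2, where edgeR called 0 of the 7 ABA genes tested, beside 0% of the 18901 features (smallest adjusted p 0.410). Unadjusted, 3 of the 7 had p under 0.05, all lower in paternal nrpd1: NCED9, CYP707A1 and CYP707A3, where 5.88% of features did so in that direction. The median log2 change of the 7 was -1.02, beside 0.01 for all features. With library sizes alone in place of TMM factors the median of all features was -0.12. NCED9 was the 1 gene in which every paternal nrpd1 library lay below every wild-type library, as in 2.58% of features, and no ABA gene had every one above, as in 6.27%.

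NCED9 had 0.168, 0.0874 and 0.949 CPM in paternal nrpd1, from 6, 3 and 31 total counts, against 1.98, 12.0 and 3.66 CPM in wild type, from 56, 420 and 91 counts. The highest mutant library had less than the lowest wild-type library. The log2 change was -3.74 ± 0.91 (SE), with an unadjusted p of 0.00333 and an edgeR adjusted p of 0.616. DESeq2 gave the same log2 change of -3.74 and an adjusted p of 0.0241, and called NCED9 among 0.0848% of features. Without paternal nrpd1 replicate 2 and wild-type replicate 1, the pair of libraries that were alike, the edgeR log2 change of NCED9 was -3.72 ± 0.94 (adjusted p = 0.192), an alternative chosen after seeing the data.

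NCED6 had 18.2, 6.82 and 20.3 CPM in paternal nrpd1, against 16.1, 33.4 and 23.9 CPM in wild type. The groups overlapped, and the log2 change was -0.59 ± 0.34 (edgeR adjusted p = 0.625), or -0.33 without paternal nrpd1 replicate 2. NCED5 did not pass the filter on low counts: it had 16, 0 and 11 total counts in paternal nrpd1 and 1, 4 and 1 in wild type. ABA2 had 23.5, 19.8 and 26.8 CPM in paternal nrpd1, against 15.9, 24.9 and 25.2 CPM in wild type, a log2 change of 0.25 ± 0.25 (adjusted p = 0.728). That was the smallest log2 change in size of the 7 genes tested. AAO3 had 0.140, 1.195 and 1.4995 CPM in paternal nrpd1, against 0.988, 5.18 and 1.89 CPM in wild type. Its lowest library held 5 counts, and its log2 change was -1.21 ± 0.88 (edgeR adjusted p = 0.658). Without paternal nrpd1 replicate 2 and wild-type replicate 1, the alternative chosen after seeing the data, it was -2.04 ± 1.08 (edgeR adjusted p = 0.378). With 1 library left out at a time it ranged from -1.69 without paternal nrpd1 replicate 2 to -0.53 without wild-type replicate 2.

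CYP707A1, the main CYP707A gene here, had 25.5, 12.2 and 32.9 CPM in paternal nrpd1, against 21.7, 83.2 and 57.3 CPM in wild type. Wild-type replicate 1 lay among the mutant libraries, and the other 2 wild-type libraries lay above all of them. The log2 change was -1.02 ± 0.39 (SE), with an unadjusted p of 0.0303 and an edgeR adjusted p of 0.616. CYP707A3 had 1.60, 0.758 and 1.35 CPM in paternal nrpd1, against 1.34, 6.36 and 6.48 CPM in wild type. Wild-type replicate 1 again lay among the mutant libraries, and the log2 change was -1.70 ± 0.57 (unadjusted p = 0.0171, adjusted p = 0.616). An alternative chosen after seeing the data left out wild-type replicate 1 and paternal nrpd1 replicate 2. The changes were then -1.14 ± 0.25 for CYP707A1 and -1.99 ± 0.48 for CYP707A3, both with an edgeR adjusted p of 0.187. With 1 library left out at a time they ranged from -1.30 to -0.72 for CYP707A1 and from -2.07 to -1.41 for CYP707A3. CYP707A2 had 0.309, 0.612 and 0.153 CPM in paternal nrpd1, against 0.388, 0.487 and 0.0805 CPM in wild type, and a log2 change of 0.40 ± 0.99 (adjusted p = 0.892).

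In these 6 libraries the endosperm markers summed to 182, 90.9 and 150 CPM in paternal nrpd1 and to 143, 277 and 238 CPM in wild type, most of it ALE1 and ZOU. Paternal nrpd1 replicate 2 and wild-type replicate 1, low in CYP707A1 and NCED6, were each the lowest of their group. Divided by the TMM factors, the sums were 183, 121 and 130 CPM in paternal nrpd1 and 181, 218 and 207 CPM in wild type. Of the 5 endosperm markers tested, 4 had a log2 change below 0 and 1 above. FIS2 had -1.77 ± 0.70 and ALE1 -0.61 ± 0.34 (SE; edgeR adjusted p = 0.616 and 0.624). Seed coat markers summed to 115, 172 and 389 CPM in paternal nrpd1 and to 174, 335 and 208 CPM in wild type. Of the 8 tested, 5 lay above 0 and 3 below, with PRX36 at 2.71 ± 1.19 and TT10 at -0.96 ± 0.43 (edgeR adjusted p = 0.616 for both). Embryo markers summed to 64.3, 34.0 and 13.1 CPM in paternal nrpd1 and to 12.6, 39.3 and 63.6 CPM in wild type, nearly all of it CUC1 and STM. These 2 had log2 changes of 0.23 ± 0.65 and 0.63 ± 0.88 (edgeR adjusted p = 0.907 and 0.806). The part of endosperm, seed coat or embryo content in the lower values of NCED9, CYP707A1 and CYP707A3 was not tested.

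**Figure D2:**
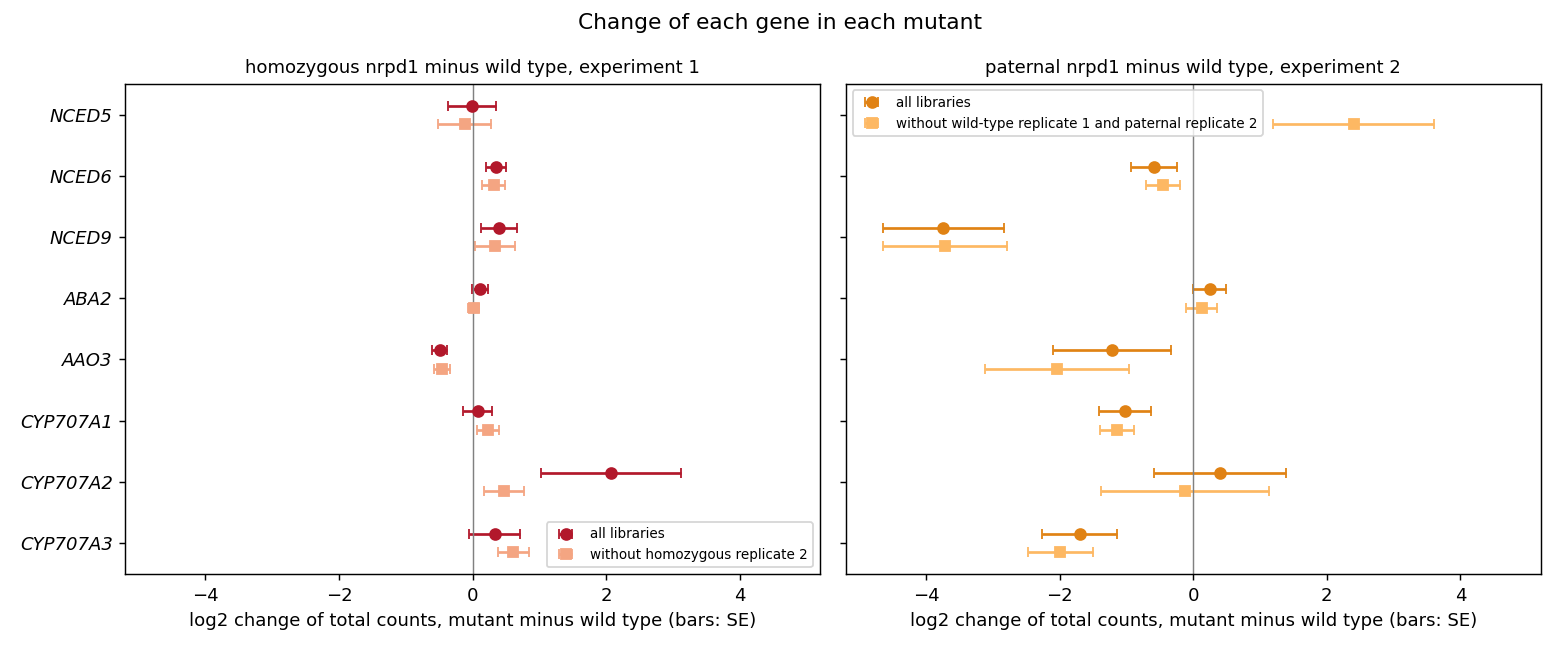
Log2 change of total counts, mutant minus wild type, with its standard error (horizontal axes) for each gene in experiment 1 (left) and experiment 2 (right), from all libraries and without the libraries that stood apart. NCED9 is near -3.7 in paternal nrpd1 under both choices, while CYP707A2 in homozygous nrpd1 is 2.08 with and 0.47 without replicate 2, and NCED5 in experiment 2 passed the count filter in the smaller set of libraries only.

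Whether the mutants differed in their effect was tested as an interaction over all 11 libraries, where edgeR called 0 of the 8 genes and 0% of 20078 features (7.31% at an unadjusted p under 0.05). The effect in homozygous nrpd1 minus that in paternal nrpd1 was 4.13 ± 0.96 on the log2 scale for NCED9 (SE; unadjusted p = 0.00143, adjusted p = 0.514). DESeq2 put this difference of NCED9 at 4.12 with an adjusted p of 0.00708, among 0.496% of features called. The difference was 2.02 ± 0.68 for CYP707A3 (unadjusted p = 0.0137, adjusted p = 0.625), 1.10 ± 0.47 for CYP707A1 (0.0409 and 0.662) and 0.95 ± 0.38 for NCED6 (0.0302 and 0.638). ABA2 had the smallest difference, -0.14 ± 0.26 (adjusted p = 0.902). Experiment and mutant type cannot be told apart in these differences. For NCED9 the Ler share also varied in experiment 1, at 0%, 36.1% and 32.1% in homozygous nrpd1 and 94.97% and 36.1% in wild type. The part of the strain at that locus in its difference was not tested.

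Reads that cover a base differing between the strains were assigned by the authors to the maternal Ler or the paternal Col allele, 17.8% to 18.4% of counts in experiment 1 and 7.05% to 7.82% in experiment 2. Endosperm holds 2 maternal genomes and 1 paternal, so equal expression of each copy gives a maternal share of 66.7%. In all crosses the parent and the strain of an allele cannot be told apart. Of the 8 genes, 4 in experiment 1 and 3 in experiment 2 had enough allele counts to be tested, a mean of at least 20 per library. ABA2 and NCED9 were not tested in experiment 1, because they are among the 5081 genes of a list deposited with that experiment whose name speaks of Col and nrpd1. For listed genes the Ler and Col counts in homozygous nrpd1 need not tell mother from father. Their values in experiment 1 are therefore given as Ler shares.

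The NCED6 messenger RNA came from both parents near the ratio of their genomes. Its maternal share was 73.9%, 78.7% and 76.6% in homozygous nrpd1, against 70.1% and 72.6% in wild type, from 127 to 209 allele counts. In experiment 2 it was 48.6%, 75% and 71.8% in paternal nrpd1, against 78.4%, 74.1% and 61.5% in wild type, from 24 to 54 allele counts. CYP707A1 had 68.9%, 83.3% and 72.9% in homozygous nrpd1, against 67.1% and 65.0% in wild type. In NCED6 and in CYP707A1 every homozygous nrpd1 library had a higher share than both wild-type libraries, as in 31.4% of the 8417 genes tested. The shift on the log2 scale of Ler over Col was 0.37 ± 0.30 for NCED6 (edgeR adjusted p = 0.621) and 0.61 ± 0.37 for CYP707A1 (adjusted p = 0.592), beside a median of 0.33 over the genes tested. In experiment 2 CYP707A1 had 78.3%, 90.9% and 64.5% in paternal nrpd1, against 85.7%, 73.5% and 60.4% in wild type. CYP707A3 had 64.5%, 52.1% and 64.8% in homozygous nrpd1, against 57.7% and 64.0% in wild type. AAO3 had 85.3%, 70.6% and 77.8% in homozygous nrpd1, against 78.9% and 81.4% in wild type.

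In no tested ABA gene did the maternal share differ between mutant and wild type at an adjusted p under 0.05 by edgeR. None of the 4 in experiment 1 was called beside 0.107% of genes, and none of the 3 in experiment 2 (NCED6, ABA2 and CYP707A1) beside 0.0678%. Adjusted p-values were 0.592 to 0.975 in experiment 1 and 0.984 to 1 in experiment 2. Against 2 maternal to 1 paternal, none of these genes was called in wild type, where 25% of genes in experiment 1 and 18.6% in experiment 2 were. AAO3 was the farthest from that ratio, by 1.01 ± 0.42 on the log2 scale (SE; adjusted p = 0.107). In paternal nrpd1 CYP707A1 had log2 changes below 0 in both alleles, each larger in size than that of its total counts. Maternal counts alone gave -1.47 ± 0.40 (edgeR unadjusted p = 0.00513, adjusted p = 0.711). Paternal counts alone gave -1.59 ± 0.72 (edgeR unadjusted p = 0.0541, adjusted p = 0.761), beside 0% of genes called in each. The paternal counts were low and overlapped, at 5, 1 and 11 in paternal nrpd1 and 5, 26 and 19 in wild type. For NCED6 the maternal counts gave -0.49 ± 0.46 and the paternal counts 0.07 ± 0.55.

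ABA2 had Col counts alone in homozygous nrpd1. Its Ler counts were 0 of 85, 0 of 96 and 0 of 125, which allows Ler shares of up to 3.53%, 3.13% and 2.40%, against Ler shares of 67.5% and 71.9% in wild type. As ABA2 is a listed gene, this need not mean that its maternal allele was silent. The 30 to 33 genes around ABA2 on chromosome 1 that had at least 20 allele counts each had a median Ler share of 0% in each homozygous nrpd1 library. In wild type their medians were 62.9% and 65.3%. So the share of ABA2 in homozygous nrpd1 was that of its neighbours, while its total level differed by a log2 change of 0.11. Kept in the test with the other listed genes, ABA2 was called (edgeR adjusted p = 0.00588, beside 7.19% of genes called), and no fold is given because 1 allele had no counts in the mutant. In experiment 2, where the mother was wild type, ABA2 had a maternal share of 79.7 ± 3.34% in paternal nrpd1 and 74.5 ± 5.79% in wild type (SD, n = 3 each; edgeR adjusted p = 0.984).

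NCED9, also on chromosome 1, varied from library to library in experiment 1. Its Ler counts were 0 of 281, 86 of 238 and 60 of 187 in homozygous nrpd1, shares of 0%, 36.1% and 32.1%. In wild type they were 151 of 159, a share of 94.97%, and 86 of 238, a share of 36.1%. Homozygous nrpd1 replicate 1, with no Ler count, had the highest total level of NCED9, 53.5 CPM, and wild-type replicate 1, nearly all Ler, the lowest, 27.0 CPM. The 38 to 40 measured genes nearest NCED9 had median Ler shares of 0%, 36.8% and 40.6% in homozygous nrpd1, against 69.3% and 32.7% in wild type. Wild-type replicate 2 thus had a low share over the whole neighbourhood and goes against the label of a Ler mother there. Its allele counts of NCED9 equalled those of homozygous nrpd1 replicate 2, whose total count was 732, against 806 in wild-type replicate 2. In wild-type replicate 1, 1 of the 39 neighbours reached the share of NCED9. In experiment 2 NCED9 had 4 of 4 maternal counts in paternal nrpd1 and 41 of 43 in wild type. The pooled wild-type share was 95.3% (95% Wilson interval 84.5% to 98.7%), against neighbour medians of 62.5% to 70.0% in the wild-type libraries. By library the wild-type counts were 3 of 3, 32 of 32 and 6 of 8, so most came from replicate 2. Among seed coat markers in the same wild type, the pooled Ler share was 100% in BAN, 99.9% in TT10 and 72.7% in TT16. The part of seed coat content in the share of NCED9 was not tested.

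For the genes too low to test, the counts are given alone. CYP707A2 had 0 of 6, 21 of 24 and 5 of 11 maternal counts in homozygous nrpd1, against 2 of 6 and 3 of 7 in wild type, so the library with its high level also had mostly maternal counts. NCED5 had 22 of 25 maternal counts over the homozygous nrpd1 libraries, against 11 of 17 over wild type. In experiment 2 NCED5 had 0 of 6 in paternal nrpd1 and 1 of 1 in wild type. CYP707A3 had 16 of 27 in paternal nrpd1 and 42 of 61 in wild type. The Wilson intervals of these shares overlap between mutant and wild type.

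**Figure D3:**
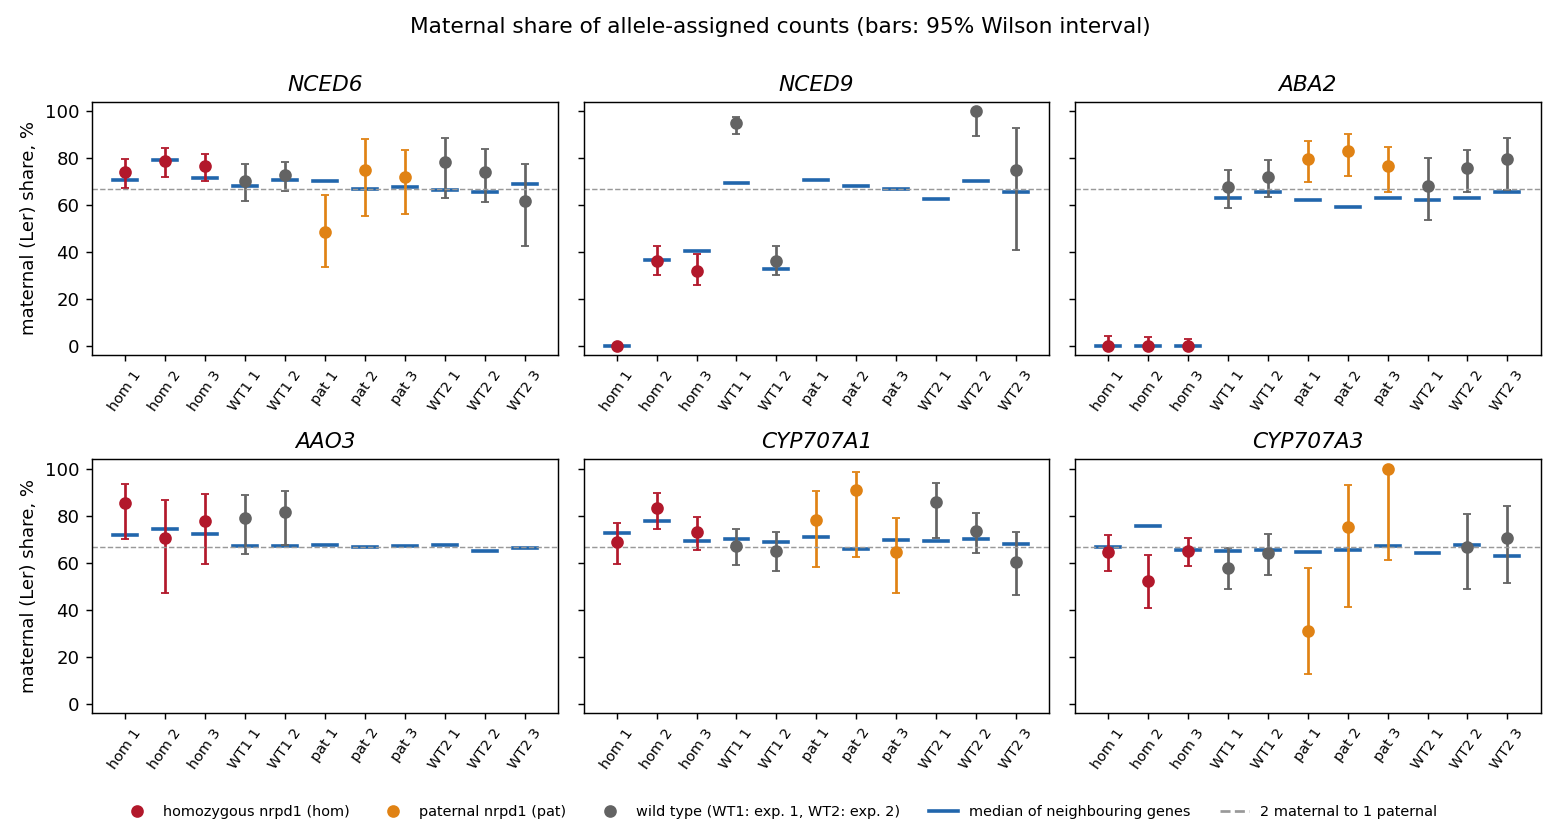
Maternal (Ler) share of allele-assigned counts (vertical axes, percent) of 6 genes in each library with at least 5 such counts, with 95% Wilson intervals, the median share of neighbouring genes as a blue bar and 66.7% as a dashed line. ABA2 lies at 0% with its neighbours in all 3 homozygous nrpd1 libraries, and NCED9 lies at 94.97% in wild-type replicate 1 and 36.1% in wild-type replicate 2 of experiment 1. For ABA2 and NCED9 the Ler share in homozygous nrpd1 need not be maternal.

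Another 44 genes of ABA metabolism, transport, signalling and response were examined as lists. In homozygous nrpd1 37 of them were tested, 27 had a log2 change above 0 and 10 below, and none was called by edgeR. Their median was 0.20, beside 0.00 for all features, and 3 had an unadjusted p under 0.05, where 11.7% of features did. In paternal nrpd1 36 were tested, 16 above 0 and 20 below, and none was called by edgeR. Their median was -0.24, beside 0.01, and 3 had an unadjusted p under 0.05, where 7.91% of features did. Both shares lay under or near those of all features.

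Among the 5 other synthesis genes, all 5 had values above 0 in homozygous nrpd1, and 3 of the 4 tested lay below 0 in paternal nrpd1. NCED2, a further dioxygenase gene, averaged 1.31 ± 0.179 CPM in homozygous nrpd1 and 0.646 ± 0.266 CPM in wild type, a log2 change of 1.04 ± 0.38 (SE; edgeR adjusted p = 0.404). ABA4, which acts in neoxanthin synthesis, had a log2 change of 0.27 ± 0.17 (adjusted p = 0.561). In experiment 2 ABA1, the zeaxanthin epoxidase, averaged 7.10 ± 3.31 CPM in paternal nrpd1 and 18.9 ± 10.8 CPM in wild type, a change of -1.23 ± 0.42 (adjusted p = 0.616). ABA3, the molybdenum cofactor sulfurase that activates aldehyde oxidases, averaged 2.59 ± 1.68 CPM in paternal nrpd1 and 8.35 ± 5.59 CPM in wild type, a change of -1.52 ± 0.66 (adjusted p = 0.616). The libraries of ABA1 and ABA3 overlapped between the groups. Of the 4 other breakdown and conjugation genes UGT71C5, an ABA glucosyltransferase, was tested, at 0.17 ± 0.21 in homozygous nrpd1 and -0.16 ± 0.32 in paternal nrpd1.

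The transporters and receptors were mixed in direction. Of the transporter genes, 2 of 4 tested lay above 0 in homozygous nrpd1, with ABCG30 at -0.68 ± 0.32 and ABCG31 at 0.61 ± 0.34. In paternal nrpd1 2 of 5 lay above 0, with the importer gene NPF4.6 at -1.27 ± 0.50 and the exporter gene ABCG25 at -0.93 ± 0.38 (edgeR adjusted p = 0.616 for both). Of 9 receptor genes, 4 lay above 0 in homozygous nrpd1, with PYL5 at 0.53 ± 0.26 (0.25 ± 0.13 without replicate 2) and PYL6 at 0.61 ± 0.33. In paternal nrpd1 7 of 9 lay above 0, with PYL4 at 0.97 ± 0.49 and PYL8 at 0.64 ± 0.33 (adjusted p = 0.620 and 0.623). The summed level of the receptor genes was 82.9 to 88.2 CPM in homozygous nrpd1 and 76.6 to 79.5 CPM in wild type of experiment 1, and 87.0 to 99.2 CPM in paternal nrpd1 and 64.6 to 72.3 CPM in wild type of experiment 2. Divided by the TMM factors, the sums of experiment 2 overlapped, at 84.6 to 132 CPM in paternal nrpd1 and 50.8 to 90.5 CPM in wild type, and those of experiment 1 stayed apart, at 81.9 to 93.9 CPM in homozygous nrpd1 and 76.2 to 77.4 CPM in wild type. The sums were not tested.

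Of the 6 phosphatase genes, which restrain ABA signalling, 5 lay above 0 in homozygous nrpd1 and 2 in paternal nrpd1. ABI2 averaged 6.66 ± 1.81 CPM in homozygous nrpd1 and 2.87 ± 0.150 CPM in wild type, with all mutant libraries higher, a log2 change of 1.26 ± 0.31 (SE; unadjusted p = 0.00774, edgeR adjusted p = 0.276; DESeq2 adjusted p = 0.0389). AHG1, a phosphatase gene of seeds, had 27.5, 116 and 38.3 CPM in homozygous nrpd1, against 16.3 and 29.4 CPM in wild type. Its log2 change was 1.47 ± 0.72 (edgeR adjusted p = 0.479), and 0.52 ± 0.32 (adjusted p = 0.623) without replicate 2, the high library. In paternal nrpd1 ABI1 had 0.48 ± 0.34 and HAB1 -0.62 ± 0.44. Of the 3 kinase genes, SNRK2.6 had 0.37 ± 0.20 and SNRK2.2 0.20 ± 0.12 in homozygous nrpd1, and SNRK2.6 had -0.65 ± 0.41 and SNRK2.3 0.34 ± 0.27 in paternal nrpd1. Among the transcription factor genes, ABF1 averaged 16.1 ± 2.24 CPM in homozygous nrpd1 and 24.0 ± 6.71 CPM in wild type, a change of -0.53 ± 0.19 (adjusted p = 0.395). ABI5 had 11.1, 76.8 and 9.46 CPM in homozygous nrpd1, against 9.90 and 8.65 CPM in wild type. Its log2 change of 1.89 ± 1.06 (edgeR adjusted p = 0.513) was 0.15 ± 0.16 (adjusted p = 0.777) without replicate 2. In paternal nrpd1 ABI3 had -0.59 ± 0.34 and ABF1 -0.30 ± 0.36. The 3 response genes tested in homozygous nrpd1 had a median log2 change of 1.88 with replicate 2 and 0.46 without it. In that comparison RAB18 had 5.90 ± 2.63 (0.86 ± 0.65 without replicate 2) and RD29B 1.88 ± 1.20 (0.21 ± 0.70 without it), and in paternal nrpd1 RD29A had -2.77 ± 1.28 and RD29B -0.88 ± 1.11, none of them called.

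Likeness was measured as Pearson's r of log2(CPM + 1), centred on the mean of each experiment, over the 11 libraries. TMM factors were not applied, and depth and the sums of the tissue markers differed between libraries of the same experiment. The part of depth and tissue content in these correlations was not tested. Among the members CYP707A1 and CYP707A3 were most alike at 0.918, followed by CYP707A1 and NCED6 at 0.862. CYP707A2 had an r of -0.28 with CYP707A1 and -0.36 with CYP707A3. Of about 12170 other genes, those closest to CYP707A1 were AT4G32020 (0.987) and ECT6 (0.983), and those closest to CYP707A3 were AT5G41550 (0.965) and ACS6 (0.962). NCED6 was closest to AT4G12980 (0.977) and AT5G24240 (0.975), and NCED9 to ATPMEPCRD (0.972) and ACR7 (0.964). ABA2 was closest to AT2G42300 (0.957) and AT1G30090 (0.955), AAO3 to SPA1 (0.942) and TL29 (0.942). CYP707A2 was closest to AT4G02690 (0.930) and AT2G21820 (0.910), and AT2G21820 is annotated as a seed maturation protein. The centred value of CYP707A2 was 1.94 in homozygous nrpd1 replicate 2 and -0.64 to 0.28 in the other libraries. Its r values therefore rest mostly on that library.

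**Figure D4:**
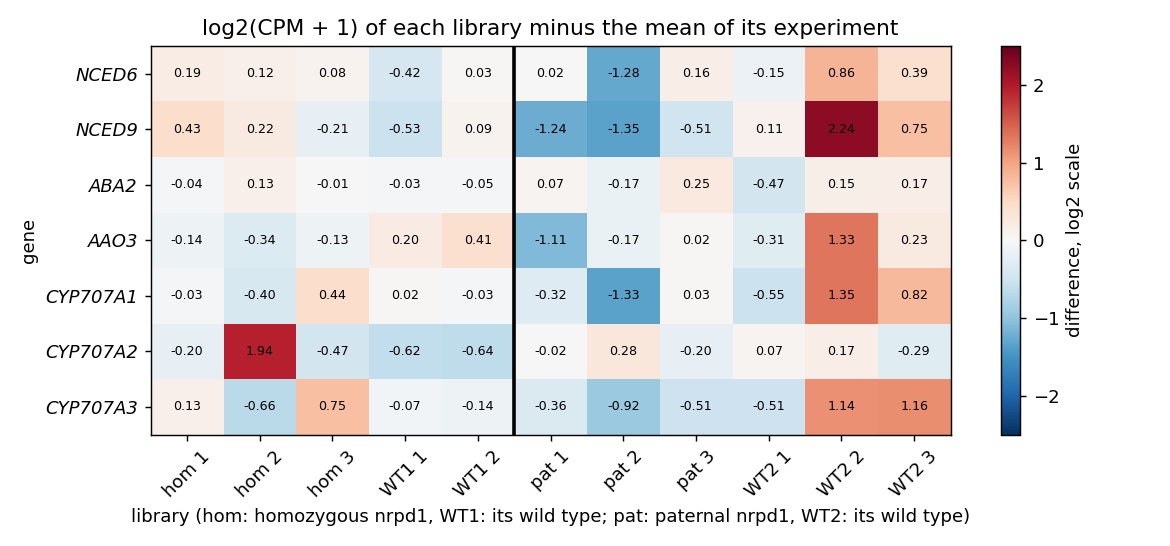
Difference of log2(CPM + 1) from the mean of the experiment (colour and printed value) for 7 genes (rows) in the 11 libraries (columns, mutant libraries left of wild type). CYP707A1 and CYP707A3 share their pattern across the libraries, and CYP707A2 stands at 1.94 in homozygous nrpd1 replicate 2 alone.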

How the data were processed

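Polyadenylated RNA of endosperm was sequenced in 11 libraries. Per the labels' protocols, experiment 1 used a TruSeq stranded kit with 15 cycles and paired reads of 100 bases, and experiment 2 a SMARTer kit with 12 cycles and single reads of 40 bases. The authors deposited raw counts per feature: all reads, Col-assigned and Ler-assigned. Per the submitters' processing notes, cutadapt, Trim Galore, FastQC, TopHat, HTSeq and TAIR10 were used. How alleles were assigned and whether strand was used are not given in the sources used here. The other deposited file, per the labels of experiment 1, is a list of 5081 gene identifiers. The 5 summary lines of each experiment 2 table, 11.6% to 13.3% of counts, were left out.

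Each mutant was compared with the wild type of its experiment by edgeR 4.0.16 (R 4.3.3; TMM, filterByExpr, two-sided quasi-likelihood test, Benjamini-Hochberg adjustment over all features, threshold 0.05). Maternal shares were tested in edgeR on Ler and Col counts with a library term, at a mean of at least 20 allele counts. DESeq2 1.42.0 was an alternative. The other alternatives were scaling, filters, the listed genes, a replicate block and each library left out. The tests were checked on simulated counts with large changes in well-covered genes and a fixed spread between libraries. That check does not cover genes with low counts or the spread of these libraries. Replicates are separate samples per the labels, and the p-values set group differences against the spread between them. Wilson intervals (95%) and the limits that a count of 0 allows, from 3 counts, cover counting error only. Exon lengths, positions and promoters came from RefSeq TAIR10.1, where all 78 loci matched. The members and lists were chosen with earlier results of these data known. Named were all members, the 2 genes of each list with the smallest unadjusted p per comparison where none was called, and the 2 genes most like each member (mean of at least 5 CPM in each experiment).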

Additional observations from a re-analysis of the deposited data

How the results depend on the processing

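No total difference of an ABA gene was called by edgeR under any alternative. DESeq2 called 1 in paternal nrpd1, NCED9 at -3.74, and 1 in the difference of the mutant effects, NCED9 at 4.12. Keeping the listed genes called the share of 1 gene, ABA2. Features called in homozygous nrpd1 numbered 62, but 516 by DESeq2, 302 with a replicate block, 12 in 1 fit of all 11 libraries and 8 without the listed genes. In paternal nrpd1 they numbered 0, but 16 by DESeq2 and 1 in the fit of all 11 libraries, and in the difference 0, but 97 by DESeq2. Shares called numbered 9 in experiment 1, but 732 with the listed genes kept and 232 with the replicate block, and 5 in experiment 2, but 3 at a minimum mean of 50. Paternal counts called 17 features in homozygous nrpd1, but 6 with library sizes of the same allele. Signs turned for CYP707A1 (-0.16) and CYP707A3 (-0.11) in homozygous nrpd1 with the replicate block, for the share of CYP707A3 with the block (-0.10) and with the listed genes kept (-0.000215), and for the maternal counts of CYP707A1 with library sizes of the same allele (-0.0184). With each library left out in turn, features called in homozygous nrpd1 ranged from 0 (without either wild-type replicate) to 44, with 6, 44 and 34 without mutant replicates 1, 2 and 3. Experiment 1 had 7 to 129 shares called, and 1396 to 2670 away from 2 to 1 in wild type. Experiment 2 had 2 to 10 shares called, and 927 to 1610 away from 2 to 1. The difference of the mutant effects had 0 to 1 features called. No ABA gene was called in any of these settings, and none of the values below passed the test either. In homozygous nrpd1 the total change of ABA2 ranged from 0.0166 to 0.17, of CYP707A1 from -0.16 to 0.23, of CYP707A3 from -0.0770 to 0.61 and of NCED5 from -0.21 to 0.22, and the share of AAO3 from -0.45 to 0.15 and of CYP707A3 from -0.16 to 0.24. The wild-type share of CYP707A1 against 2 to 1 ranged from -0.10 to 0.0303. In paternal nrpd1 the total change of CYP707A2 ranged from -0.50 to 0.83, and the share of CYP707A1 from -0.27 to 0.82 and of NCED6 from -0.78 to 0.0708. NCED9 kept its sign, from -5.09 to -2.91. Deviations of same-numbered libraries correlated at 0.34 and 0.36 in experiment 1, with only 2 pairs. As the deviations of 2 wild-type libraries mirror each other, pairing by replicate number cannot be judged there. In experiment 2 these correlations were -0.56, -0.72 and 0.15, so the replicate numbers did not pair its libraries. The causes of these shifts were not tested. Low counts limit NCED9 and AAO3 in experiment 2 and NCED5 and CYP707A2 in both.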
